A study of Mus musculus with 12 samples.

Results

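The cells described here are the T cells of MC38 tumours in which both Mki67 and Top2a RNA were detected. A cell was a member if it held at least 1 UMI (a unique molecular identifier, which marks 1 captured RNA molecule) of each gene, had at least 500 genes detected and had at most 10% mitochondrial UMIs. The members were thus chosen by their Mki67 and Top2a counts, and numbered 467 of 2740 kept cells, or 17.0%. The label given to these cells, cycling tumour T cells, held for a minority of them by the check described below, so they are called Mki67+Top2a+ cells here.

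Mki67 encodes the Ki-67 antigen, which is made in dividing cells, is degraded after division and is absent from resting cells. Top2a encodes DNA topoisomerase II alpha, which untangles the DNA copies and is most abundant from S phase to mitosis. A resting T cell is held out of the cell cycle by transcription factors such as KLF2, TCF1 and LEF1, and antigen recognition by the TCR releases it, after which a T cell passes several divisions in which its daughters keep the same rearranged TCR and so form a clone. In tumours, dividing CD8 T cells and regulatory T cells (Treg) are commonly found side by side.

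The cells came from tumours of MC38, a mouse colon carcinoma line, grown in mice heterozygous for Kaede, a green fluorescent protein that violet light turns red. On day 14 of tumour growth the tumour-draining lymph node was exposed to 405 nm light, so that red marks a cell photoconverted in that node, and green a cell that was not. The compared groups were RT day 1 and RT day 3 (12 Gy to the tumour on the day of photoconversion, collected 24 h or 72 h later), RT with FTY720 day 3 and FTY720 day 3 (10 µg FTY720 intraperitoneally on day 15, with or without the same 12 Gy), and the unirradiated groups NT day 3 and NT day 1. All groups, NT included, carried Kaede and had the node photoconverted, and all cells were enriched on CD4 and CD8 beads and sorted as live CD90.2-positive cells of 1 colour, so no group holds T cells in their natural proportions. FTY720 is a sphingosine-1-phosphate receptor modulator that keeps lymphocytes in lymphoid tissue. Each of the 6 groups had 2 replicates of 4 pooled tumours, which, by the labels, gives 12 tumour pools and, with 2 colours, 24 hashed samples. These were run in 4 wells of a 10x Genomics 5' assay with hashtag and TCR libraries. In each replicate 1 well held RT day 1 with both NT groups, and another held the remaining day 3 groups. RT and NT were therefore compared within a well at day 1 and under FTY720, and across wells at day 3 without FTY720. Since tumours were pooled, p-values measure the spread between pools and not between mice.

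Kept cells per hashed sample ranged from 17 to 322, and the fewest members in a pool were 5 (RT with FTY720 day 3 replicate 1) and the most 107 (NT day 1 replicate 2). No barcode was shared between wells. Members were deeper than the other cells, with medians of 29740 UMIs and 5540 genes in members, against 18911 UMIs and 4408 genes in other cells. The median UMI count was higher in members in 12 of 12 pools (28447 ± 4652 UMIs as the mean of pool medians in members, mean difference 10073 UMIs, exact sign-flip permutation test over pools, two-sided, p = 0.000488, the smallest it can give). A rule of 1 UMI per gene favours deep cells, and dividing cells hold more RNA, and these cannot be told apart here. When each cell was thinned to 10000 UMIs, 250 of 2432 cells (10.3%) met the rule, and 308 kept cells, 6 of them members, were too shallow to be thinned. A productive TCR beta chain was read in 456 members (97.6%) and 2058 other cells (90.5%), and 2 or more were read in 3.21% of members and 3.30% of other cells, which is a sign of doublets. Summed levels of markers of other cells overlapped between members and other cells over the pools. B cell markers stood at 8.4 to 116 CPM (UMIs scaled to a common library total) in members and 19.9 to 165 CPM in other cells, myeloid markers at 67.0 to 334 and 178 to 366 CPM, and tumour or epithelial markers at 2.91 to 21.2 and 1.32 to 34.3 CPM. S100a8, S100a9, Krt8 and Krt19 had no UMI in members or in other cells, and Pax5 stood at 0 and 0.0218 CPM, so these genes do not separate them. Other markers were found in both. Cst3 stood at 124 CPM in members and 102 CPM in other cells, Cd74 at 107 and 90.9, Ighm at 74.3 and 78.6, Fcer1g at 18.7 and 29.9 and Epcam at 5.99 and 5.96. Summed T cell identity genes stood at 4840 to 7410 CPM in members and 6372 to 8517 CPM in other cells.

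The colours need a caution that comes before the results. The colour in the hashtag names of the deposited matrices differs from that of the labels' tag numbers in 12 of 24 hashed samples, all of replicate 2, and the names in the matrices were used. Identical beta chains (same V, J and CDR3 nucleotides) were shared most often between hashed samples of the same condition and the same hashtag but different replicate numbers, which by the matrix names are of different colours. There were 73 such sequences in 12 sample pairs, or 6.08 per pair, against 9 in the 12 pairs of both colours of 1 pool (0.75 per pair), 8 in the 12 pairs of the same colour in both replicates (0.667) and 29 in 240 pairs from different conditions (0.121). Of the 73, 37 had a member cell, and 63 also had an identical alpha chain CDR3. Identical chains in separate mice are rare, as background, and which tumours make up each pool was not settled here. The cells of 1 tumour pool may therefore be spread over both replicate numbers. If tumours follow the hashtag, the red and green cells joined here as a pool come from different tumours. Comparisons of colours within a pool are then not paired by tumour, and clones within a pool are split by colour. If the 2 replicates of a condition hold cells of the same tumours, there are fewer than 12 independent pools and every p-value over pools is too small. Neither was tested. The matrix names also give fewer CD4 conventional cells in red than in green in 12 of 12 pools (mean difference −8.27 percentage points), whereas the label colours give fewer in 6 of 12 (0.516 points). Results that use colour, pools or clones are therefore also given with pools built by hashtag or with the label colours where these change them.

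A minority of the Mki67+Top2a+ cells expressed a broad cell cycle programme. Of 10 further genes of S phase, G2 and mitosis (Cdk1, Ccnb1, Ccnb2, Birc5, Cenpf, Pclaf, Stmn1, Tubb5, Rrm2 and Tyms), 6 or more were detected in 122 of 467 members (26.1%) and in 15 of 2273 other cells (0.660%), and at most 2 were detected in 233 members (49.9%) and 88.5% of other cells. Pclaf, a PCNA partner at the replication fork, had a UMI in 35.5% of members and 2.90% of other cells. Cdk1, the kinase that drives mitosis, had one in 30.2% of members and 3.87% of other cells, and Rrm2, a subunit of ribonucleotide reductase, in 38.5% of members and 7.96% of other cells. Tubb5, a tubulin gene, was in 94.4% of members and 83.2% of other cells and so hardly separated them. Scores for S phase and for G2/M were both at or below 0 in 266 members (57.0%) and 91.0% of other cells. These genes follow the same cycle as the genes of the rule, so these shares were not tested. The edgeR values given below for Rrm2 and Tyms carry the same tie.

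The programme followed the amount of Mki67 and Top2a. None of the 43 members with exactly 1 UMI of each gene had 6 of the 10 genes, nor did more than 4 of the 173 members with 3 to 5 UMIs in all. Among the 251 members with 6 or more UMIs, 118 (47.0%) had them, and among the 140 with 12 or more, 109 (77.9%) did. Cells just outside the rule, with 1 of the 2 genes, numbered 974 (563 with Top2a and 411 with Mki67), of which 13 had 6 of the 10 genes, as did 2 of the 1299 cells with neither gene. Depth moved with this order, with a median of 19607 UMIs in cells with 1 UMI of each gene, 24039 in those with 3 to 5 and 36350 in those with 6 or more. Droplets also carry free RNA, and its part in the count of members was not settled. Cells with UMIs of both Ccr7 and Lef1, genes of naive cells, gave 78 members of 614 (12.7%, median 21943.5 UMIs), against 18.3% of the rest (median 19824.5 UMIs), but 27 of the 614 (4.40%) held 6 or more of the 10 cycle genes, so they are no measure of free RNA.

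**Figure D1:**
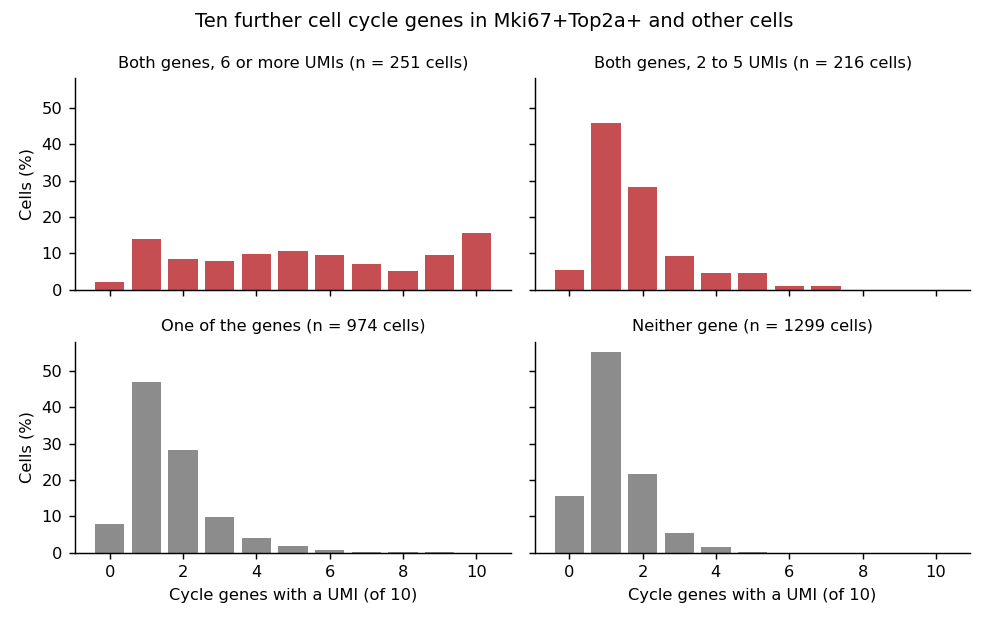
The number of the 10 further cell cycle genes detected per cell (horizontal axis) is plotted as the percent of cells (vertical axis) in members with 6 or more UMIs of Mki67 and Top2a together (251 cells), members with 2 to 5 (216), cells with 1 of both genes (974) and cells with neither (1299). Members with few UMIs of the rule's genes lie over the cells outside the rule, and members with 6 or more spread out to all 10 genes.

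Cells of all 3 T cell lineages met the rule. By raw UMIs, CD8 cells (Cd8a without Cd4 or Foxp3) gave 280 of 1542 cells (18.2%), Treg (Foxp3 without Cd8a) 109 of 557 (19.6%) and CD4 conventional cells (Cd4 without Foxp3 or Cd8a) 57 of 494 (11.5%). A further 20 of 75 cells carried marks of more than 1 lineage and 1 of 72 carried none. CD8 cells thus made up 59.96% of members, Treg 23.3% and CD4 conventional cells 12.2%. Over pools with at least 10 cells of a lineage, the share of members had a low of 0%, a median of 18.7% and a high of 27.8% in Treg (10 pools), 3.13%, 10.0% and 37.5% in CD4 conventional cells (11 pools), and 3.45%, 15.9% and 28% in CD8 cells (12 pools). The lineages overlapped throughout, and no pair differed beyond the spread over pools. Treg minus CD8 was −0.14 percentage points (p = 0.934 by an exact sign-flip permutation test over pools), CD4 conventional minus CD8 −2.94 (p = 0.442) and Treg minus CD4 conventional 4.57 (p = 0.297), with Benjamini-Hochberg adjusted p of 0.934, 0.664 and 0.664 over the 3 pairs. Depth moved with lineage as well, at medians of 25846 UMIs in Treg members, 21588 in CD4 conventional members and 33531.5 in CD8 members. At 10000 UMIs per cell the shares were 10.6% in Treg, 8.42% in CD4 conventional cells and 11% in CD8 cells. The broad programme of 6 or more of the 10 genes was seen in 24 Treg members (22%), 9 CD4 conventional members (15.8%) and 85 CD8 members (30.4%).

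By the matrix names, green cells of irradiated tumours held lower shares of Mki67+Top2a+ cells than green cells of unirradiated tumours in every pool. The difference missed the adjusted threshold. Of green cells, 50 of 395 were members in RT pools, against 167 of 800 in NT pools. The 6 RT pools had a low of 3.45%, a median of 10.8% and a high of 14.8%, and the 6 NT pools 17.0%, 19.8% and 23.5%. The groups thus did not overlap with the matrix names. The mean was 10.2 ± 4.38% in RT pools and 20.2 ± 2.82% in NT pools (SD, n = 6 pools each), a difference within the 3 strata of day 1, day 3 and day 3 with FTY720 of −10.0 percentage points. An exact permutation of the labels within strata, two-sided, gave p = 0.00926, the smallest it can give, which became 0.0556 after Benjamini-Hochberg adjustment over the 6 comparisons of conditions and colours, so the difference missed the threshold of 0.05. The direction was the same in each stratum. At day 1, the share was 14.3% and 14.8% in RT replicates and 23.3% and 23.5% in NT replicates, all from the same wells. At day 3 it was 3.45% and 11.9% with RT and 20.8% and 18.9% with NT, and under FTY720 7.14% and 9.68% with RT and 17.6% and 17.0% without. With the label colours, the red cells of replicate 2 count as green, and the groups overlapped. RT day 1 replicate 2 then stood at 16.5%, above NT day 3 replicate 2 at 11.4%.

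In the RT pools of day 3, with or without FTY720, these green shares rest on 1 to 5 members each. Depth moved with the difference, since the median UMI count per green cell was 13895.5 to 19099 in RT pools and 15949 to 22224 in NT pools. At 10000 UMIs per cell, the green share ranged from 0% to 12.1% in RT pools (median 7.03%) and from 7.14% to 18.8% in NT pools (median 13.8%), with overlap. Green cells with 6 or more of the 10 cycle genes numbered 6 (1.52%) in RT pools and 54 (6.75%) in NT pools. The part of depth in the difference was not tested beyond the thinning.

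The shares of red cells overlapped between RT and NT. Members were 102 of 585 red cells in RT pools and 148 of 960 in NT pools. The means were 16.6 ± 4.63% in RT pools and 17.3 ± 5.61% in NT pools, with a difference of −0.69 points (exact permutation within strata, p = 0.843). The strata disagreed. The red share averaged 19.8% with RT and 19.99% with NT at day 1, 15.9% with RT and 10.6% with NT at day 3, and 14.0% with RT and 21.2% without RT under FTY720. The effect of RT was also compared between colours, which was not among the planned comparisons, and the difference did not hold under every setting. Red minus green was 6.36 ± 6.39 points in RT pools and −2.95 ± 6.33 points in NT pools, a difference of 9.30 points (exact permutation within strata, p = 0.00926, the smallest it can give, not adjusted with the 6 comparisons). This call was lost in the same permutation when 1 pool was left out (p = 0.120 without NT day 3 replicate 1 and 0.0926 without NT day 3 replicate 2), at 10000 UMIs per cell (6.75 points, p = 0.120) and with the label colours (3.53 points, p = 0.491). With pools built by hashtag it was 9.30 points (exact permutation, p = 0.0185).

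**Figure D2:**
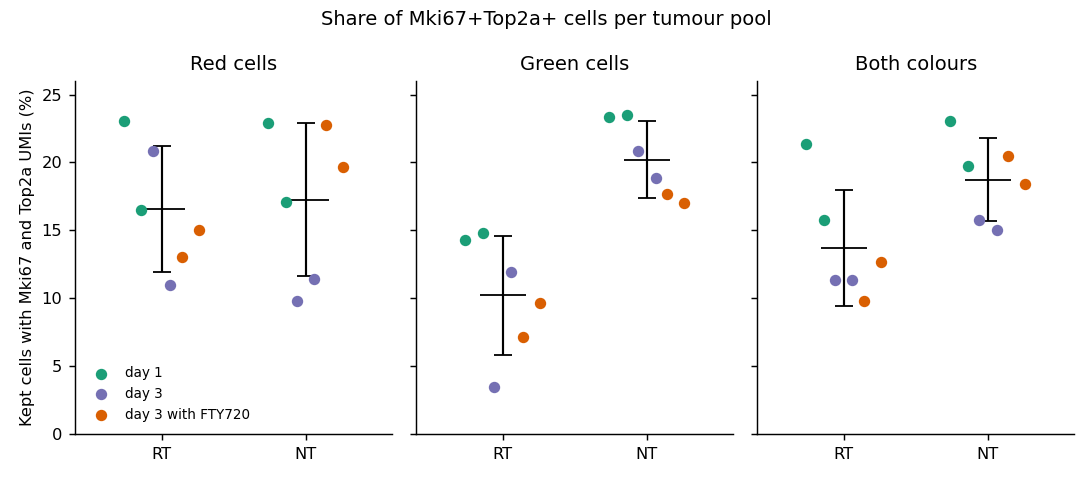
The percent of cells that were Mki67+Top2a+ in each of the 12 tumour pools is plotted for red cells, green cells and both colours together, with RT pools left of NT pools, points marked by stratum and the mean ± SD beside them. With the matrix names used here, the 6 RT pools lie below the 6 NT pools in green cells, and the groups overlap in red cells.

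Both colours together gave 13.7 ± 4.25% in RT pools and 18.7 ± 3.04% in NT pools (lows, medians and highs of 9.80%, 12.0% and 21.3% with RT and 15.0%, 19.1% and 23.1% with NT). The difference of −5.04 points had p = 0.0185 (exact permutation within strata) and an adjusted p of 0.0556, and RT day 1 replicate 1, at 21.3%, stood among the NT pools. By lineage, no difference between RT and NT passed. Each difference is a mean over the 3 strata, so it need not equal the difference of the printed averages. The CD4 conventional difference rests on 11 pools, without FTY720 day 3 replicate 1, and its sign turned with another pool left out (−7.92 to 3.53). The Treg share averaged 13.2% with RT and 22.1% with NT (difference −8.97, p = 0.0556), the CD4 conventional share 12.8% and 14.5% (−5.60, p = 0.463), and the CD8 share 14.5% with RT and 20.4% with NT (−5.87, p = 0.139), by exact permutation within strata, with adjusted p of 0.167, 0.463 and 0.208 over the 3 lineages. FTY720 pools of day 3 averaged 15.4 ± 4.97% and pools without it 13.3 ± 2.35% (difference 2.02, exact permutation, p = 0.222). Day 3 pools averaged 13.3 ± 2.35% and day 1 pools 19.97 ± 3.14% (difference −6.63, exact permutation, p = 0.0556, the smallest that 4 pools against 4 in 2 strata allow). Red cells had 16.9 ± 4.92% and green cells 15.2 ± 6.29% members over 12 pools (difference 1.71, exact sign-flip permutation test, p = 0.470), higher in red in 7 of 12.

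Among the members themselves, the balance of the phase scores leaned towards G2/M in irradiated tumours at full depth. A G2/M score above the S score was found in 60.6 ± 6.12% of members in RT pools and 47.6 ± 6.64% in NT pools (difference 13 points, exact permutation within strata, p = 0.0185). Most members scored at or below 0 for both phases, so this is a balance of low scores and no count of cells in mitosis. Members with 6 or more of the 10 cycle genes were 27 of 152 in RT pools and 95 of 315 in NT pools. Genes of G2 and mitosis went the other way in CD8 members, with a median log2 fold change below 0 in RT over NT, given below. At 10000 UMIs per cell the difference was 2.55 points (exact permutation, p = 0.722).

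Genes were compared between Mki67+Top2a+ cells and the other cells of the same lineage and pool, on UMIs summed per pool, in 1 edgeR quasi-likelihood fit of 8894 genes with the pool as a block and Benjamini-Hochberg adjustment. In CD8 cells, where 10 pools had at least 5 members, 725 genes were higher and 560 lower in members. Genes of the cell cycle lists are tied to the rule and are described only. Their median log2 fold change in CD8 cells was 1.76 for 50 S phase genes, 3.11 for 96 G2 and mitosis genes and 3.02 for 32 replication-dependent histone genes, against −0.03 over all genes. Outside the cycle lists, 539 genes were higher and 558 lower.

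Genes of division outside the cycle lists were among the largest rises in CD8 members. Mastl, the Greatwall kinase that keeps mitotic phosphorylation in place, stood at a low of 3.51, a median of 22 and a high of 58.4 CPM in members and at 0, 0.518 and 2.66 CPM in other CD8 cells. It was higher in members in 10 of 10 pools (log2 fold change 5.43 ± 0.39 SE, edgeR adjusted p = 1.17e-15). Mybl2, a transcription factor of S phase and G2 genes, rose by 4.19 ± 0.36 in the same fit (edgeR adjusted p = 3.81e-13). Ska1 and Kntc1, of the kinetochore, and Mxd3, of the MAX network, rose by 4.95, 3.78 and 4.49, with 145 UMIs of Ska1 and 133 of Mxd3 in members, against 8 and 10 in other cells. As genes of division they are tied to the rule like those of the cycle lists, so their p-values are no independent support.

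A minority of the genes that make the building blocks of DNA rose. Of 34 measured nucleotide synthesis genes, 12 were higher and 1 lower in CD8 members, with a median log2 fold change of 0.38, beside 14.4% of all tested genes called in either direction. Rrm2 stood at 38.6 to 235 CPM in members (median 143) and 1.42 to 11.6 CPM in other CD8 cells (median 5.46), with no overlap (4.63 ± 0.28, edgeR adjusted p = 6.89e-18). Thymidine kinase Tk1 rose by 3.27 (25.4 to 114 CPM in members, 6.41 to 13.3 CPM in other cells), and thymidylate synthase Tyms by 2.64 (edgeR adjusted p of 2.67e-13 and 9.5e-13). Ctps2, a CTP synthase, was the member of this list that fell (−0.58, edgeR adjusted p = 0.00502, and 0.782 at 10000 UMIs per cell). Of 31 DNA damage checkpoint and repair genes, 18 were higher and 0 lower (median 1.14). They included Brca1 (3.39, edgeR adjusted p = 6.41e-13), which acts in homologous recombination, and the checkpoint kinase Chek1 (2.42), each without overlap between members and other cells. Many genes of both lists are themselves induced in S phase, so these rises are not independent of the rule.

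Genes of rest and homing fell in CD8 members. Of 28 measured genes of quiescence and lymphoid homing, 0 were higher and 22 lower, with a median of −0.56, beside 6.3% of all genes called lower. Klf3, a relative of Klf2, had a low of 11.4, a median of 21.4 and a high of 56.6 CPM in members and 46.5, 74.7 and 127 CPM in other CD8 cells, and was lower in 10 of 10 pools (−1.63 ± 0.22, edgeR adjusted p = 1.38e-07). S1pr1, the receptor by which T cells leave tissue for lymph and blood, had a low of 8.15, a median of 25.4 and a high of 57.4 CPM in members and 28.6, 71.7 and 115 CPM in other cells (−1.41 ± 0.26, edgeR adjusted p = 6.98e-05). Members were lower in 10 of 10 pools for S1pr1, although the 2 ranges overlap.

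Tcf7 and Lef1, which encode TCF1 and LEF1 of naive and stem-like T cells, fell by 1.19 and 1.35 on the log2 scale, and Ccr7, the receptor for entry to lymph nodes, by 1.35 (edgeR adjusted p of 0.000561, 3.21e-06 and 0.00578). Medians were 80.3 CPM of Tcf7 and 73.2 CPM of Lef1 in members, against 195 and 182 CPM in other cells. Btg1, an antiproliferative gene, was high in both, at 470 to 975 CPM in members and 794 to 1211 CPM in other cells, and fell by 0.56 ± 0.09 (edgeR adjusted p = 3.61e-06). Cdkn1b, which encodes the CDK inhibitor p27, fell by 0.45 (edgeR adjusted p = 0.0043). At 10000 UMIs per cell 14 of the 28 genes were lower and 0 higher, and Cdkn1b did not pass (edgeR adjusted p = 0.496).

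Genes induced early after TCR signalling were also among those that fell. Of 25 such genes, 13 were lower and 0 higher (median −0.59), beside 6.3% of all genes called lower. Nr4a1, a direct target of TCR signalling, stood at 39.6, 131 and 284 CPM (low, median and high) in members and 97.9, 236 and 451 CPM in other CD8 cells (−1.08 ± 0.21, edgeR adjusted p = 0.000163), lower in 10 of 10 pools. Junb, an AP-1 factor, fell by 0.61 (adjusted p = 0.000819 in edgeR) and the cytokine gene Tnf by 1.08 (0.005). Il2, the T cell growth factor, had 226 UMIs in members and 3838 in other CD8 cells and fell by 3.58 ± 0.71 (edgeR adjusted p = 0.000242), but it was lower in 6 of 10 pools, as other pools held little of it, with a median of 1.596 CPM in members and 12.6 CPM in others. At 10000 UMIs per cell 16 of the 25 were lower, while Il2 did not pass (edgeR adjusted p = 0.127).

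Further genes lower in CD8 members were Cd55, a complement regulator (6.08 CPM in members and 27.5 CPM in others as medians, −1.99 ± 0.27, edgeR adjusted p = 5.74e-08), Il6ra, a chain of the IL-6 receptor (−1.73), and Ifngr2, of the interferon gamma receptor (−1.87, 20 UMIs in members and 225 in others). Egr2, which TCR signalling induces, fell by 1.69 and was lower in 9 of 10 pools. Tcp11l2 stood at 0 to 23.8 CPM in members and 32.0 to 64.5 CPM in other cells, without overlap (−1.65 ± 0.21, edgeR adjusted p = 1.6e-08). Over all genes, 8.15% were called higher and 6.3% lower. The IL2 and STAT5 list had 0 genes higher and 7 lower of 19 (4 without NT day 3 replicate 1), and the p53 target list 0 and 4 of 23 (2 without NT day 1 replicate 1). Nuclear genes of the respiratory chain had 11 higher and 0 lower of 61 (median 0.19), which fell to 4 without RT day 3 replicate 2 and to 1 at 10000 UMIs per cell. Among them, Atp5j, of ATP synthase, stood at 315 to 428 CPM in members and 226 to 305 CPM in other cells, without overlap (0.39 ± 0.08, edgeR adjusted p = 0.000201). Neither glycolysis (0 of 21 genes), ribosome biogenesis and Myc (0 of 40) nor exhaustion (0 of 21) had a called gene in CD8 cells. The cytotoxic effector list had 1 higher and 2 lower of 28, and the interferon-stimulated list 0 higher and 2 lower of 34, near or below the shares over all genes.

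**Figure D3:**
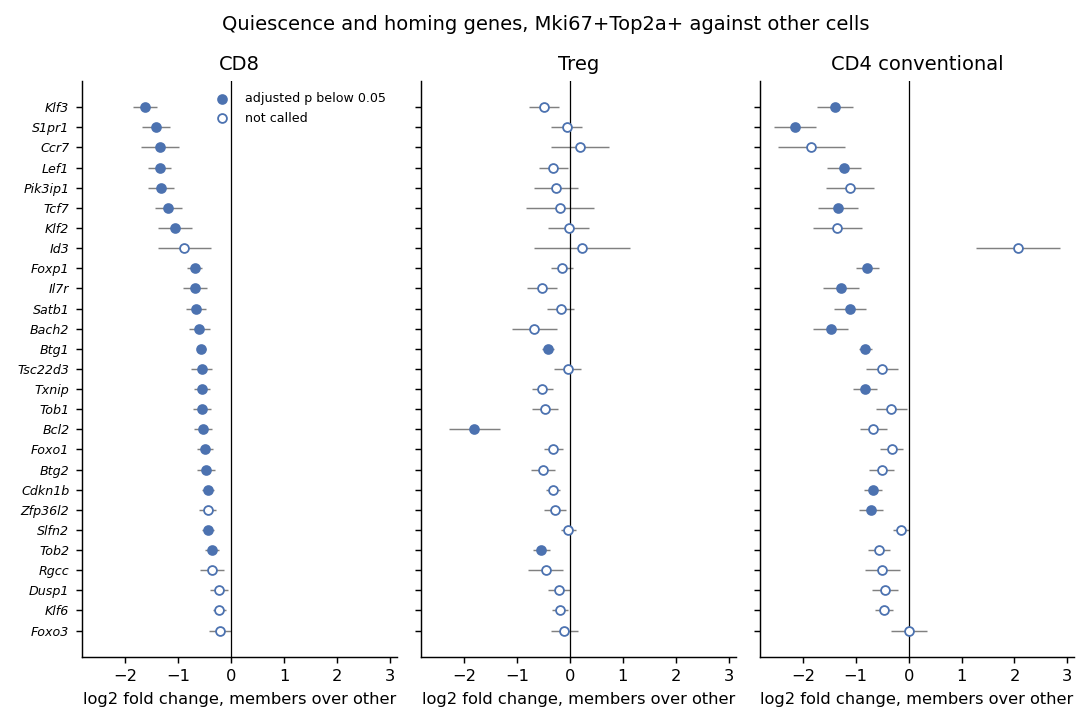
The log2 fold change ± SE of 27 of the quiescence and homing genes in Mki67+Top2a+ cells over other cells is plotted for CD8 cells, Treg and CD4 conventional cells, with filled points at an edgeR adjusted p below 0.05. In CD8 cells all 27 plotted estimates lie below 0 and 21 are filled, in Treg 3 and in CD4 conventional cells 12 are filled.

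Gene levels were set against the number of cycle genes within the CD8 members, as a description, on UMIs summed over the cells of all pools. Pools with many cells weigh most in these sums. The 85 CD8 members with 6 or more of the 10 cycle genes held 3008 CPM of quiescence and homing genes, the 83 with 3 to 5 held 3815, the 112 with at most 2 held 5363, and the 1262 other CD8 cells held 6175. Early activation genes stood at 6676, 6486, 10153 and 13477 CPM in the same order, and cytotoxic effector genes at 16024, 16280, 19985 and 23513 CPM. Single pools with at least 5 such cells numbered 6 per class of members and 12 for other cells. Over these, quiescence and homing genes ranged over 2588 to 3269, 3005 to 4334, 3703 to 6966 and 5132 to 7539 CPM. Cytotoxic genes ranged over 8883 to 28533, 11597 to 20638, 14643 to 25617 and 11278 to 33735 CPM. The ranges of early activation and cytotoxic genes overlapped between all classes. Median depth ran the same way, from 47256 UMIs in the first class through 34916 and 26729 to 21118 in other cells.

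In Treg, 6 pools had enough members, and 421 genes were higher (4.73%) and 49 lower (0.551%). Of the higher genes, 249 lay outside the cycle lists. Rrm2 stood at 14.8 to 262 CPM in members and 1.06 to 8.14 CPM in other Treg (4.08 ± 0.40, edgeR adjusted p = 5.27e-11), Mastl rose by 4.06, Tk1 by 2.45 and Brca1 by 3.32. As in CD8 cells, these rises are not independent of the rule. Nucleotide synthesis genes were higher in 12 and lower in 0 of 34, and repair genes in 16 and 0 of 31, beside 5.28% of all genes called. Repair calls numbered 10 without NT day 1 replicate 1. None of the 12 measured Treg core genes and none of the 22 effector Treg genes passed in either direction, with medians of −0.10 and −0.22.

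A few genes fell in Treg members. Cd40lg, the helper ligand of CD4 cells, had 10 UMIs in members and 286 in other Treg (0 to 9.88 CPM in members, 9.48 to 47.6 CPM in others, −3.42 ± 0.84, edgeR adjusted p = 0.00495) and was lower in 6 of 6 pools. Nr4a1 fell by 0.97 ± 0.25 (edgeR adjusted p = 0.00889), a call lost without NT day 1 replicate 1 (0.0856) or replicate 2 (0.0798). The survival gene Bcl2 fell by 1.80 ± 0.49 (edgeR adjusted p = 0.0145), on 18 UMIs in members and 212 in others, a call lost without RT day 1 replicate 2 (−1.25, adjusted p = 0.2 in edgeR). Lilrb4a, an inhibitory receptor, fell by 1.99 (edgeR adjusted p = 0.00889), lost without NT day 1 replicate 2 (0.0525). Quiescence and homing genes were lower in 3 of 28 (median −0.27) and early activation genes in 3 of 25 (median −0.64), beside 0.551% of all genes. Without NT day 1 replicate 2 none of the early activation genes passed. Without NT day 1 replicate 1, 1 of the quiescence genes did. Cd40lg, Bcl2 and Lilrb4a did not pass at 10000 UMIs per cell (edgeR adjusted p of 0.405, 0.0814 and 0.912), nor did Lilrb4a with pools built by hashtag (0.066).

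Fewer calls in Treg than in CD8 cells do not show a smaller change. A direct test of the difference between the effect in Treg and that in CD8 cells passed for 1 of 8894 genes, which is 0.0112%. That gene, Trav13n-1, is a TCR alpha segment and so follows single clones (9.44, edgeR adjusted p = 0.00771).

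In CD4 conventional cells, 5 pools had enough members, and 428 genes were higher (4.81%) and 192 lower. Genes of rest and egress fell in members, and 8 genes of glycolysis rose. S1pr1 stood at 19.96, 26.01 and 221 CPM (low, median and high) in members and 192, 248 and 324 CPM in other CD4 conventional cells (−2.15 ± 0.40, edgeR adjusted p = 0.000131), lower in 5 of 5 pools. Ccr4, a chemokine receptor of tissue-homing CD4 cells, stood at 6.65 to 43.3 CPM in members and 63.8 to 138 CPM in others, without overlap (−2.18 ± 0.46, edgeR adjusted p = 0.000872). Btg1, at 639 to 889 CPM in members and 1160 to 1655 CPM in others, fell by 0.82 ± 0.12 (edgeR adjusted p = 3.5e-06). Bach2, a repressor that keeps T cells from effector fates, fell by 1.47 (adjusted p of 0.00265 in edgeR), and Cd69 and Junb, which activation induces, by 0.67 and 0.75. S1pr1, Ccr4, Bach2, Cd69 and Junb did not pass at 10000 UMIs per cell (edgeR adjusted p of 0.0928 to 0.350), nor did Cd69 with pools built by hashtag (0.120).

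Of the quiescence and homing genes 12 of 28 were lower (median −0.70), beside 6.97% of all genes called, but 4 without RT day 1 replicate 2 and 3 at 10000 UMIs per cell. Of early activation genes 6 of 25 were lower, and 2 without FTY720 day 3 replicate 2. Of 21 glycolysis genes 8 were higher and 0 lower (median 0.55). Aldoc, an aldolase, stood at 26 to 45.3 CPM in members and 0 to 17.0 CPM in others, without overlap (1.88 ± 0.43, edgeR adjusted p = 0.00246), and Gapdh rose by 0.74 ± 0.14 (edgeR adjusted p = 0.000208). The glycolysis count fell to 2 without FTY720 day 3 replicate 2, to 3 with pools built by hashtag and to 0 at 10000 UMIs per cell, where Aldoc and Gapdh had edgeR adjusted p of 0.312 and 0.882. The difference between the lineages in glycolysis genes was not tested. Nucleotide synthesis genes were higher in 9 of 34, repair genes in 10 of 31 (6 without NT day 1 replicate 2) and respiratory chain genes in 6 of 61 (1 without FTY720 day 3 replicate 2). Mastl rose by 5.05, Rrm2 by 4.66, Tk1 by 3.61 and Brca1 by 3.04 (edgeR adjusted p of 3.02e-05 or less, with Brca1 at 0.0801 at 10000 UMIs per cell). These rises are likewise not independent of the rule.

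Mki67+Top2a+ Treg and Mki67+Top2a+ CD8 cells differed in genes of their lineages. Over 6 pools, 1316 genes were higher (14.8%) and 1047 lower (11.8%) in Treg members, 26.6% of those tested in all. Of the 22 effector Treg genes 20 were higher and 0 lower (median 2.07). Il10, a suppressive cytokine, stood at 9.88, 153 and 302 CPM (low, median and high) in Treg members and 0, 0.292 and 1.51 CPM in CD8 members, from 589 and 5 UMIs. Areg, a tissue repair factor, had 465 UMIs in Treg members and 5 in CD8 members. Maf, a transcription factor of Il10-producing T cells, stood at 450 to 910 CPM in Treg members and 0 to 26.8 CPM in CD8 members (6.22 ± 0.36, edgeR adjusted p = 2.71e-19). Itgb8 and Lrrc32, which act in the activation of TGF-beta, were higher by 7.23 and 6.47, Klrg1 by 6.0, Tnfrsf4 (OX40) by 4.17, Il2ra (CD25) by 3.51, Ctla4 by 3.35 and Icos by 2.90, each without overlap.

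Cytotoxic genes were on the other side. Of 28 cytotoxic effector genes 2 were higher and 20 lower in Treg members (median −2.10). Xcl1 had 1 UMI in Treg members and 9924 in CD8 members, Gzma 2 and 3943, Klrk1 (NKG2D) 1 and 3861, and Gzmk 1 and 718. Prf1, the pore-forming perforin, stood at 0 to 35.4 CPM in Treg members and 163 to 354 CPM in CD8 members (−3.22 ± 0.34, edgeR adjusted p = 6.16e-11). Ifng had 43 UMIs in Treg members and 6898 in CD8 members (−6.36 ± 0.80, edgeR adjusted p = 8.4e-09), and Pdcd1 (PD-1) was lower by 2.68 ± 0.29.

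The survival gene Bcl2 stood at 2.16 to 14.8 CPM in Treg members and 316 to 553 CPM in CD8 members (−6.09 ± 0.38, edgeR adjusted p = 3.94e-18), while Pim1, a survival kinase under STAT5, was higher in Treg members by 2.27 ± 0.18 (edgeR adjusted p = 1.14e-14). Of 28 quiescence and homing genes 8 were higher and 8 lower. S1pr1 was higher in Treg members by 1.49 and Tcf7 lower by 3.19. The cell cycle regulators Ccnd2 (cyclin D2) and Cdkn1b were higher in Treg members by 0.95 and 0.91.

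Glycolysis genes were higher in 10 and lower in 2 of 21 (median 0.47). Hif1a, the hypoxia factor, stood at 740 to 1537 CPM in Treg members and 316 to 579 CPM in CD8 members (1.44 ± 0.19, edgeR adjusted p = 1.76e-08), Pkm at 972 to 2214 and 596 to 737 CPM (1.10), and Aldoc was higher by 1.89. Leaving out RT day 1 replicate 2 left 6 glycolysis genes higher, and thinning to 10000 UMIs per cell left 3. Respiratory chain genes were higher in 0 and lower in 16 of 61 (median −0.22), led by Atp5h at 262 to 366 CPM in Treg members and 398 to 507 CPM in CD8 members (−0.52 ± 0.09, edgeR adjusted p = 2.5e-06), and 6 were lower without NT day 3 replicate 2.

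Interferon-stimulated genes were higher in 18 and lower in 0 of 34 (median 0.55), and higher in 9 at 10000 UMIs per cell. Ly6a (Sca-1) stood at 1770 to 2570 CPM in Treg members and 475 to 797 CPM in CD8 members (1.83 ± 0.17, edgeR adjusted p = 2.69e-12) and the immunity-related GTPase Iigp1 was higher by 2.78. S phase genes were higher in 0 and lower in 8 of 50 (median −0.55), a share of calls near the 11.8% of all genes called lower, among them Rpa2 of single-strand DNA binding (−0.98, edgeR adjusted p = 0.000193), and the count was 4 without NT day 3 replicate 2 and 18 at most with another pool left out. Treg members also had the lower share with 6 of the 10 cycle genes, given above, and the part of this in the S phase genes was not tested.

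Red and green Mki67+Top2a+ CD8 cells were compared in the 5 pools with at least 5 such cells of each colour, which were NT day 1 and NT day 3 in both replicates and RT day 1 replicate 2. In red members 147 genes were higher (1.93%) and 80 lower (1.05%) of 7619, or 2.98% in all. Red members were higher in some genes of rest, homing and early activation, and green members in Gzmf, Cd244a and Cd38. The lists that hold these 3 genes leaned the other way, with 5 exhaustion genes higher and 2 lower in red of 21 (median 0.43) and 5 cytotoxic effector genes higher and 1 lower of 26 (median 0.38). The calls depend on which colour each hashtag stands for. With the label colours 0 genes passed (edgeR), and with pools built by hashtag 66 did. With pools built by hashtag Cd244a (−2.09, edgeR adjusted p = 0.0614), Cd38 (−1.28, 0.108), Itgae (2.31, 0.0872) and Klf2 (1.96, 0.0644) lost their calls. Nr4a1 and Tubb4b lost theirs at 10000 UMIs per cell (edgeR adjusted p of 0.116 and 0.223).

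Gzmf, a granzyme of strongly stimulated CD8 cells, had 1 UMI in red members and 2136 in green members. In NT day 1 replicate 2 red members held 0.819 CPM and green members 870 CPM, and in the other pools it was at 0 in red members and at 33.0 to 1136 CPM in green members. Cd244a (2B4), an inhibitory receptor, stood at 4.67 and 14.7 CPM in red members of NT day 1, 5.19 and 5.92 of NT day 3 and 5.88 of RT day 1 replicate 2, against 78.7, 77.7, 39.1, 87.9 and 56.8 CPM in green members of the same pools. The colours did not overlap (−3.10 ± 0.28, edgeR adjusted p = 0.000197). Cd38, an ectoenzyme of exhausted cells, ranged over 0 to 23.3 CPM in red members and 39.1 to 62.3 CPM in green members (−1.77 ± 0.30, edgeR adjusted p = 0.00868).

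Trat1, a partner of the TCR complex, stood at 37.3 and 50.8 CPM in red members of NT day 1, 57.1 and 17.8 of NT day 3 and 80.8 of RT day 1 replicate 2, against 2.91, 4.05, 7.51, 1.66 and 0 CPM in green members (3.75 ± 0.40, edgeR adjusted p = 0.000694). Every red value was above every green one. The chemokine gene Ccl3 ranged over 631 to 2388 CPM in red members and 62.3 to 324 CPM in green members (3.13 ± 0.40, edgeR adjusted p = 0.00177), Gadd45b, a stress-induced gene, at 140 to 294 and 19.5 to 55.4 CPM (2.73 ± 0.21, edgeR adjusted p = 6.79e-05), and Tnfsf14 (LIGHT) at 40.4 to 120 and 3.67 to 16.5 CPM (2.88). Itgae, the integrin CD103, was higher in red by 2.51.

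Of 28 quiescence and homing genes 10 were higher and 1 lower in red members (median 0.68), and 7 at most passed as higher when any 1 of the 5 pools was left out, down to 4 without NT day 1 replicate 2. With pools built by hashtag 3 of 26 measured were higher. S1pr1 stood at 59.1, 68.8, 39.5 and 96.9 CPM in red members against 11.7, 16.2, 9.95 and 7.33 CPM in green members of the same pools, and NT day 3 replicate 1 had the other order, with 5.19 CPM in red members and 9.01 CPM in green members (2.21 ± 0.34, edgeR adjusted p = 0.00521). Klf2, which drives S1pr1, was higher in red by 2.22 and Bach2 by 1.22. Bcl2 was the gene of this list that was lower in red (−1.26 ± 0.23, edgeR adjusted p = 0.0147), a call lost without NT day 1 replicate 1 (0.0745) or replicate 2 (0.0703).

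Early activation genes were higher in 7 and lower in 0 of 22 (median 0.57), and in 4 without NT day 1 replicate 2 or with pools built by hashtag. Nr4a1 ranged over 67.4 to 320 CPM in red members and 31.5 to 93.5 CPM in green members and red members were above green ones in 5 of 5 pools (1.24 ± 0.15, edgeR adjusted p = 0.00176), and Irf4, which scales with TCR signal strength, stood at 88.2 to 195 and 22 to 63.1 CPM (1.82 ± 0.26, edgeR adjusted p = 0.00383). Genes of G2 and mitosis were higher in 0 and lower in 6 of 94 in red members (median −0.57), Tubb4b among them (−0.80, edgeR adjusted p = 0.022, lost without NT day 1 replicate 1 at 0.123 or RT day 1 replicate 2 at 0.0626). None of the 94 passed without RT day 1 replicate 2.

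**Figure D4:**
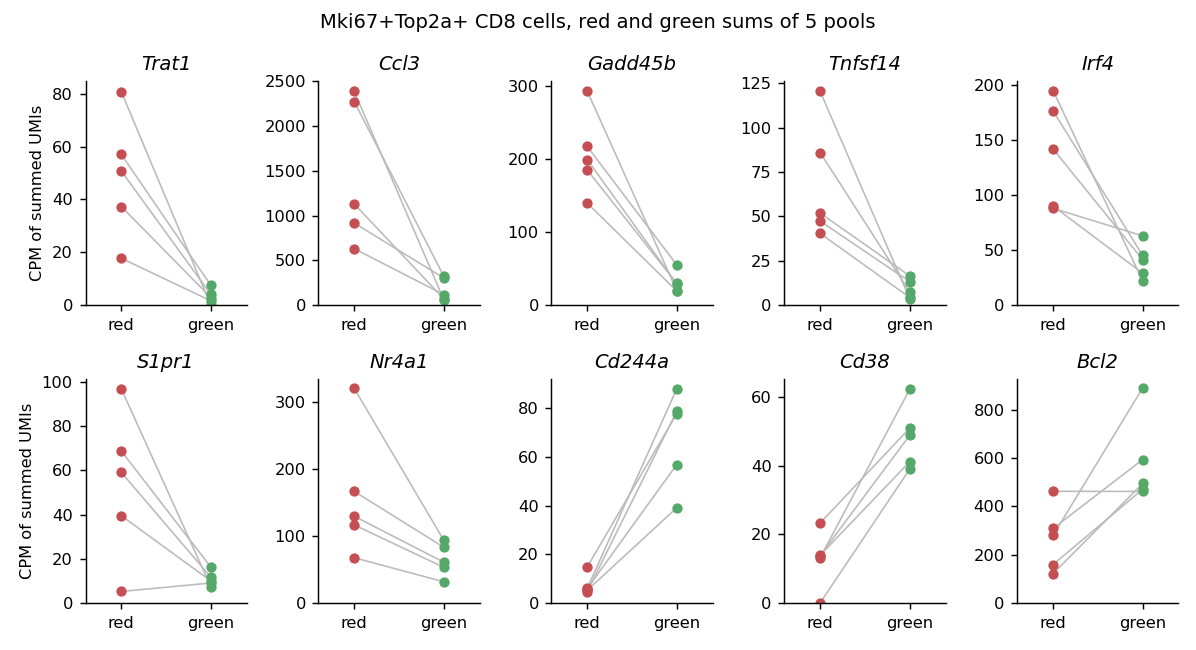
The CPM of 10 genes in Mki67+Top2a+ CD8 cells is plotted on a linear axis for red and green cells of the same pool, joined by a line, in 5 pools. Lines for Trat1, Ccl3, Gadd45b, Tnfsf14, Irf4 and Nr4a1 are higher in red in all 5 pools, S1pr1 in 4 of 5, and Cd244a and Cd38 are lower in red in all 5.

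Radiation was compared in Mki67+Top2a+ CD8 cells over 4 RT and 6 NT pools. No gene of 8270 passed in edgeR (0% called), with 1053 at an unadjusted p below 0.05 and 106 called by DESeq2. Interferon-stimulated genes had higher estimates in RT pools, none of which passed. All 32 measured had a log2 fold change above 0 (0.27 to 2.25, median 1.26), against a median of −0.01 over all genes, and the median was 0.78 to 1.43 with any 1 pool left out. Isg15 stood at 288, 518 and 1157 CPM (low, median and high) in RT pools and 59.9, 160 and 427 CPM in NT pools (1.71 ± 0.49, edgeR adjusted p = 0.194), and Irf7 at 114, 217 and 504 and 42.3, 86.1 and 115 CPM (1.43 ± 0.32, 0.127). The ranges of both genes overlapped, Irf7 only just. Serpinb9, an inhibitor of granzyme B, stood at 208 to 606 CPM in RT pools and 56.4 to 131 CPM in NT pools without overlap, yet missed the threshold (1.78 ± 0.27, edgeR adjusted p = 0.0648). Estimates for Bst2, Zbp1 and Ly6a were 1.26, 1.28 and 1.26, with edgeR adjusted p of 0.127, 0.164 and 0.189. Genes of G2 and mitosis had a median of −0.84 over 98 genes, none called.

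Most Mki67+Top2a+ cells did not share their clone with another member. A clone was taken as the cells of a pool with the same beta chain V, J and CDR3 nucleotides. The members with a beta chain fell into 407 clones, of which 288 were single cells and 119 held 2 or more cells. Of those 119, 110 mixed members and other cells and 9 were all members. Only 35 clones held 2 or more members, 33 of them made mostly of CD8 cells and 2 of Treg, and in each the members were of 1 colour. With pools built by hashtag, 40 clones held 2 or more members and 13 had members of both colours.

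The clones with most members are shown by their CDR3, the part of the beta chain that touches the peptide, since this sequence is what ties sister cells together. The beta locus is on chromosome 6. Sequences are the deposited CDR3 nucleotides, 5′ to 3′, and capitals mark the bases between the ends that at least 20% of CDR3s with the same V or J share, so they hold the D and added bases.
TRBV16 with TRBJ2-7: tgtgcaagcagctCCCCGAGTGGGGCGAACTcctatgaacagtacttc
TRBV17 with TRBJ2-1: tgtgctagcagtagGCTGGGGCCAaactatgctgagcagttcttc
TRBV20 with TRBJ2-4: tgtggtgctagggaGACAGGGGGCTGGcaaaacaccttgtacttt
TRBV12-2 and TRBV13-2 with TRBJ2-7: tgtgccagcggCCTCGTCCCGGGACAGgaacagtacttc
TRBV10 with TRBJ1-1: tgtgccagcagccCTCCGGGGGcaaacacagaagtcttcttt
TRBV16 with TRBJ2-7, second: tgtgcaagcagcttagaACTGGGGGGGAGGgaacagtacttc

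The share of members varied widely between these clones. The first TRBV16 clone had 5 members among 6 green CD8 cells of NT day 3 replicate 2, and the same chain was in 14 red cells of replicate 1, which carried the same hashtag, with 0 members. The TRBV17 clone had 4 members among 7 red CD8 cells of RT day 1 replicate 1. The TRBV20 clone, at 20 red cells the clone with most cells among those with a member, had 3 members in NT day 1 replicate 2, and 1 more green cell in another pool was a member. The clone called with both TRBV12-2 and TRBV13-2 had 3 of 11 green cells of NT day 1 replicate 2. The TRBV10 clone had 3 of 7 green cells of NT day 3 replicate 2 and 2 of 12 red cells of replicate 1. The second TRBV16 clone had 3 of 7 cells, 6 green and 1 red, and was in no other pool.

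Expanded clones held a larger share of members than of other cells in the CD8 lineage, a difference that did not pass. Clones of 2 or more cells held 142 of 274 CD8 members with a beta chain (51.8%) and 447 of 1184 other CD8 cells (37.8%). Over the 10 pools with at least 5 CD8 members with a chain the means were 44.9 ± 21.2% in members and 35.2 ± 10.8% in other cells, higher in members in 8 of 10 (difference 9.76 points, exact sign-flip permutation test, p = 0.0508, adjusted p = 0.0649). In NT day 3 replicate 1 they were 68.0% in members and 48.5% in other cells, and in RT day 1 replicate 2 55.6% and 30.3%. The order was reversed in FTY720 day 3 replicate 2, at 11.1% of 9 members and 27.1% of others. Without that pool the difference was 12.6 points and passed. With pools built by hashtag it was 11.6 points (exact permutation, p = 0.0957).

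Over all lineages 36.8% of members and 27.2% of other cells were in clones of 2 or more, and the mean difference over 12 pools was 6.05 points (30.2 ± 17.7% in members and 24.1 ± 9.84% in others, exact sign-flip permutation test, p = 0.0649). In Treg the shares were 12.0% of members and 15.6% of others, and in CD4 conventional cells 12.7% and 8.50%, on 13 and 7 members. By size of clone, members were 16.1% of cells in clones of 1 cell, 21.4% in clones of 2, 26.4% in clones of 3 to 4 and 22.5% in larger clones.

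**Figure D5:**
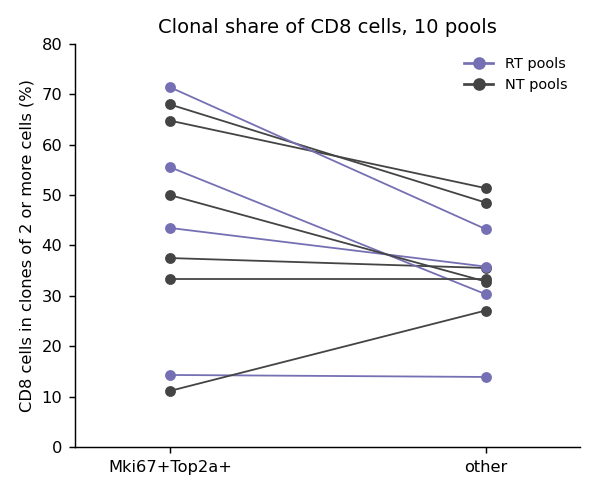
The percent of CD8 cells with a beta chain that belonged to clones of 2 or more cells is plotted for Mki67+Top2a+ cells and other cells of the same pool, joined by a line, in 10 pools. The line is higher for members in 8 pools, and the pools range from 11.1% to 71.4% in members.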

How the data were processed

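The authors deposited unnormalised UMI counts for genes and hashtags in each cell barcode, and counts of reads and UMIs for each TCR contig, made with Cell Ranger 8.0.1 on mm39 per the submitters' processing notes. Cells were assigned to samples by a leading hashtag of 20 UMIs or more, and 3 times the next, which left out 76 barcodes by genes or mitochondrial UMIs and 0 by hashtag. Hashed samples held 337319 to 7891320 UMIs. No doublet caller was run. UMIs were summed over at least 5 cells per pool, lineage and state, and tested with edgeR 4.0.16 (filterByExpr, TMM, quasi-likelihood, Benjamini-Hochberg 0.05). DESeq2, other filters, other pools and 10000 UMIs per cell were alternatives. On simulated counts the fit recovered 100% of 178 genes changed 4-fold in CD8 members, with 5.32% false calls. The changed genes were drawn from those with many UMIs, with the same spread for every gene and no differences between pools. The simulation therefore does not cover the other comparisons or genes of few UMIs. CPM of genes in the edgeR comparisons are TMM-scaled, and groups of more than 5 pools are given by low, median and high. CPM of markers of other cells, of T cell identity genes and of CD8 members by number of cycle genes are scaled to total UMIs only. Shares were compared by exact permutation over pools with at least 10 cells. The replicate number did not pair the pools (correlations of −0.04 to 0.09 over 9136 genes). The members and gene lists were chosen with earlier results of these data known. Named genes were the 10 largest called changes per direction with that direction in 80% of pools, and genes of fixed lists. From these, genes whose calls held with each pool left out were preferred, and exceptions are given in the text. Some items are not reported here.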

Additional observations from a re-analysis of the deposited data

Results flagged for a closer look

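Single pools stood apart in 10 of 77 groups of pools examined for a value far from the rest of its group, and chance alone marks about 1 in 20. The values are log2 ratios of CPM plus 1 in Mki67+Top2a+ over other cells of a pool. In CD8 cells, Egr2 stood at 4.21 in FTY720 day 3 replicate 1, with the next pool at −0.56, so this pool was higher in members against the fall elsewhere. Tcp11l2 stood at −5.20 in FTY720 day 3 replicate 2, next −2.68, and Klf3 at −3.35 in NT day 1 replicate 1, next −1.95. Tk1 stood at 0.93 in RT with FTY720 day 3 replicate 2, next 2.69, and Tyms at 0.51 in FTY720 day 3 replicate 1, next 1.95. In Treg, Mastl stood at 0 in RT day 1 replicate 1, next 2.89. In CD4 conventional cells, Ccr4 stood at −0.67 in RT day 1 replicate 2, next −2.56.

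For red over green Mki67+Top2a+ CD8 cells, Trat1 stood at 6.35 in RT day 1 replicate 2, next 3.36, and Nr4a1 at 1.77 in the same pool, next 1.12. Cd38 stood at −5.32 in NT day 3 replicate 1, next −2.15.

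A pair of differences between groups also stood out. The difference between RT and NT in the share of Mki67+Top2a+ cells was 9.30 points higher in red than in green cells (exact permutation within strata, p = 0.00926). The TCR segment Trav13n-1 had an effect 9.44 higher on the log2 scale in Treg than in CD8 cells (edgeR adjusted p = 0.00771).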

How the results depend on the processing

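The share differences rested on few cells per pool, and most alternatives kept their direction and call. With at least 2 UMIs of each gene required, RT minus NT in the share of Mki67+Top2a+ cells was −5.18 points, −9.00 in green cells, −7.02 in CD8 cells and −8.25 in Treg, now past the adjusted threshold. Thinning to 10000 UMIs per cell gave −1.03 for FTY720, 4.07 for RT in CD4 conventional cells (both with the sign turned), 6.75 for RT by colour, 2.55 for the G2/M balance of RT, 6.10 for clones and 10.7 for CD8 clones. With a UMI of Mki67 or Top2a, or of both, as the rule, Treg minus CD8 was 7.99 (sign turned). Under that rule CD4 conventional minus CD8 was −11.6, Treg minus CD4 conventional 20.2, RT by colour 7.55, clones 5.84 and CD8 clones 10.2. With the label colours RT by colour was 3.53, and with limits of 1000 genes and 5% mitochondrial UMIs the G2/M balance was 13.3 (exact permutation, p = 0.120). Pools built by hashtag gave 1.71 points for red minus green, −4.91 for RT (exact permutation, p = 0.0278), −6.09 for CD4 conventional minus CD8 (p = 0.0332) and 15.9 for the G2/M balance (p = 0.0370). The cause of these changes was not tested.

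Gene counts under other settings were as follows, each beside the count given above. CD8 calls were 663 at 10000 UMIs per cell. Treg calls were 262 at that depth. CD4 conventional calls were 107 at that depth and 295 with at least 10 cells per sum. Calls between Treg and CD8 members were 1015 at that depth. The test of the effect in Treg minus CD8 gave 5 with DESeq2, 99 without the filter on low counts and 0 at 10000 UMIs per cell. Red against green gave 677 without the filter, 17 at 10000 UMIs per cell, 66 with pools by hashtag and 0 with the label colours. RT gave 106 with DESeq2, 461 without the filter, 1 at 10000 UMIs per cell and 4 without cells of 2 or more beta chains. With RLE size factors the CD8 calls split into 808 higher and 448 lower.

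With the label colours the red over green log2 fold changes changed sign in 13 named genes, none past the threshold. They were 0.53 for Bcl2, −1.83 for Ccl3, 0.98 for Cd244a, 0.65 for Cd38, −1.13 for Gadd45b, 3.46 for Gzmf, −1.09 for Irf4, −1.02 for Itgae, −1.09 for Klf2, −0.55 for Nr4a1, −1.33 for S1pr1, −1.39 for Tnfsf14 and −1.18 for Trat1. Over all other settings, values for named genes kept direction and call in 738 cases, lost the call in 31 and gained it in 11. With 1 pool left out they kept it in 1055 cases and lost it in 8. Genes whose calls held with each pool left out were preferred for naming, so these last counts cannot measure how stable the calls are.

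With each pool left out in turn, the ranges in points were 0.280 to 2.87 for red minus green, −5.98 to −4.11 for RT, −11.4 to −8.59 for RT in green and −2.34 to 0.956 in red cells, 6.25 to 12.4 for RT by colour, 1.3 to 2.74 for FTY720 and −8.03 to −5.22 for day 3. They were −8.08 to −3.66 for RT in CD8 cells, −11.9 to −6.03 in Treg and −7.92 to 3.53 in CD4 conventional cells. They were −1.42 to 1.43 for Treg minus CD8, −5.51 to −1.32 for CD4 conventional minus CD8, 2.86 to 7.23 for Treg minus CD4 conventional, 4.52 to 7.79 for clones, 7.71 to 12.6 for CD8 clones and 10.2 to 15.8 for the G2/M balance. The UMI difference ranged from 9663 to 10787. Gene counts ranged from 952 to 1400 in CD8 cells, 292 to 493 in Treg (fewest without NT day 1 replicate 2, 299 without replicate 1), 372 to 795 in CD4 conventional cells, 1817 to 2423 between Treg and CD8 members, 0 to 3 for the test between effects, 92 to 211 for colour (fewest without NT day 1 replicate 1, 99 without replicate 2, 122 without RT day 1 replicate 2) and 0 to 1 for RT.

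With the replicate number as a block, RT gave p = 0.0312 in all cells, 0.0312 in green, 0.812 in red and 0.0312 by colour, FTY720 0.375, day 3 0.125 and the G2/M balance 0.0312 (exact permutation within pairs). The smallest p these tests can give is 0.0312 for RT and the G2/M balance, and 0.125 for FTY720 and day 3. The correlations given with the processing cover only NT day 1, RT day 1 and NT day 3, so they do not settle whether the replicate numbers pair the pools.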
